A study of Homo sapiens with 6 samples.

Results

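The M14B carboxypeptidases were followed in RNA sequencing of ARPE-19 cells, an established line of human retinal pigment epithelium. The family was taken by gene symbol and has 7 members of 21314 listed entries: CPE, CPD, CPM and CPZ, which are active enzymes, and CPXM1, CPXM2 and AEBP1, which are their inactive paralogues. The family was chosen by the values themselves, because CPXM2 was among the genes with the largest falls in this comparison, so the differences of the members between the groups are given as a description and carry no test. There were 3 libraries from cells that carried a control lentivirus and 3 from cells that carried a PDZK1 overexpression lentivirus. All 6 came from cells transduced at a multiplicity of infection of 10, selected with 4 µg/ml puromycin and then held in 37.5 mM glucose for 48 h, so lentivirus, puromycin and high glucose are shared by both groups. The promoter of the vector is not given in the sources used here. The study's methods speak in general of at least 3 independent experiments, but neither they nor the labels say whether these libraries came from separate cultures, so p-values measure only the spread between these libraries, which may be technical.

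Metallocarboxypeptidases of this family remove single basic residues, lysine or arginine, from the C-terminus of peptides and proteins, with a zinc ion held by 2 histidines and 1 glutamate. CPE trims prohormones in secretory granules after proprotein convertases have cut them. CPD does the same work in the trans-Golgi network and carries several carboxypeptidase domains in 1 chain, and CPM is a lipid-anchored enzyme of the cell surface that acts on kinins, anaphylatoxins and growth factors. CPZ is an extracellular enzyme with a frizzled-like domain that binds Wnt proteins. CPXM1, CPXM2 and AEBP1 carry a discoidin domain in front of the carboxypeptidase domain, are secreted into the matrix, and have no known activity on standard substrates; AEBP1, also called ACLP, binds collagen.

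The difference between enzymes and paralogues can be read from the coding sequence. The proteins that 1 principal GENCODE transcript of each gene encodes were aligned, and the positions below are counted from the first methionine of CPE. All 7 kept the histidine at 114 and the glutamate at 117, the first pair of zinc ligands. The arginine at 189, which holds the C-terminal carboxylate of the substrate, was R189H in CPXM1, R189N in CPXM2 and R189E in AEBP1, and was kept in the 4 enzymes. The third zinc ligand, the histidine at 248, was H248Q in CPXM2 and H248N in AEBP1 and was kept in CPXM1. The catalytic glutamate at 342 was E342Y in both CPXM2 and AEBP1 and was kept in CPXM1. In this alignment CPD was matched through the second of its carboxypeptidase domains, with the corresponding histidine at 564.

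The coding stretches of 33 bases around the third zinc ligand are shown because CPXM2 and AEBP1 depart from CPE there. They are read in the sense of the gene, 5′ to 3′, from GENCODE v29 transcripts on GRCh38, and the capitals mark the codon aligned to the histidine at 248 of CPE. Each lies in 1 coding exon, at chr4:165482296-165482328 on the plus strand for CPE, chr20:2795810-2795842 on the minus strand for CPXM1, chr10:123762083-123762115 on the minus strand for CPXM2 and chr7:44112612-44112644 on the plus strand for AEBP1.
CPE: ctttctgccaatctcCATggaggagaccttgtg
CPXM1: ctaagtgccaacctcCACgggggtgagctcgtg
CPXM2: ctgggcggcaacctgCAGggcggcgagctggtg
AEBP1: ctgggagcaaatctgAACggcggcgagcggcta

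The stretches around the catalytic glutamate are shown because the same 2 paralogues share a tyrosine codon there, marked in capitals and aligned to position 342 of CPE. They lie in coding exons at chr4:165487473-165487505 for CPE, chr20:2795349-2795381 for CPXM1, chr10:123757285-123757317 for CPXM2 and chr7:44113026-44113058 for AEBP1.
CPE: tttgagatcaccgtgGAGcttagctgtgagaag
CPXM1: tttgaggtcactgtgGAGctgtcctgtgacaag
CPXM2: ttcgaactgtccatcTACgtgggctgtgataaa
AEBP1: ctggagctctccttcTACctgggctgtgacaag

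From the first zinc ligand to the catalytic residue, CPXM2 was 60.8% identical to CPXM1 over 232 aligned residues, 58.6% to AEBP1 over 232 and 45.6% to CPE over 226. The closest pair among the enzymes was CPD and CPM, with 56.4% over 195 residues. The proteins ran from 443 residues for CPM to 1380 for CPD, and CPXM2 has 756.

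Normalised counts are counts per 1000000 of the TMM-scaled library size; the abbreviation CPM stands only for the gene. Total counts ran from 27970618 to 32804567 per library. PDZK1 itself, the gene that the virus carries, had 19, 18 and 23 counts in the control group against 3020, 2541 and 2828 in the PDZK1 group, which fits the labels. The labelled cell type was checked on 20 markers of retinal pigment epithelium. The epithelial keratins KRT8 and KRT18 were high, at 1152 ± 74.3 and 782 ± 71.3 normalised counts in the control libraries (SD, n = 3). In the same libraries EZR was at 858 ± 26.7, CRYAB at 363 ± 108, OTX2 at 63.6 ± 10.9, MITF at 42.2 ± 3.92 and RLBP1 at 3.81 ± 0.746. RPE65, the visual cycle isomerase, and TTR had 0 counts in all 6 libraries. Of the 15 markers that could be tested, 1 was higher past the threshold, the eye field gene PAX6 (log2 fold change 0.29, edgeR adjusted p 0.0292, n = 3 per group). The share over all genes tested was 1.41%. With single libraries left out PAX6 passed in 2 fits of 6, but not without control replicate 2 (adjusted p 0.110), PDZK1 replicate 1 (0.114), PDZK1 replicate 2 (0.0505) or PDZK1 replicate 3 (0.127). LRAT, a visual cycle enzyme, and SERPINF1, the secreted factor PEDF, did not pass (log2 fold changes -0.82 and -0.83, edgeR adjusted p 0.20 and 0.29), although their groups did not overlap, with the PDZK1 libraries lower. Over all genes tested, 12.3% lay lower without overlap. BEST1, a chloride channel, stood apart in PDZK1 replicate 1, at 358 normalised counts against 4.32 to 5.60 in the other 5 libraries.

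Per transcript length the members spanned a wide range, with CPD and CPE far above the rest. Levels between genes are compared as FPKM, fragments per kilobase of transcript scaled to the mapped fragments of the library. In the control libraries the order was CPD (21.4 ± 0.503), CPE (12.7 ± 0.417), CPXM2 (1.31 ± 0.198), CPM (0.809 ± 0.0600), AEBP1 (0.0127 ± 0.00260), CPXM1 (0.00602 ± 0.0104) and CPZ (0), as mean FPKM ± SD over n = 3. CPD ranked 3380 and CPE 5217 among the 20461 Ensembl entries, against 11241 for CPXM2. The neighbours in this order did not overlap between libraries down to CPM, while CPXM1 and AEBP1 rest on at most 5 counts a library and cannot be ranked. In the PDZK1 libraries CPD (22.7 ± 0.595) and CPE (16.7 ± 0.228) came first again, and CPM (0.939 ± 0.0392) lay above CPXM2 (0.0815 ± 0.0522).

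**Figure D1:**
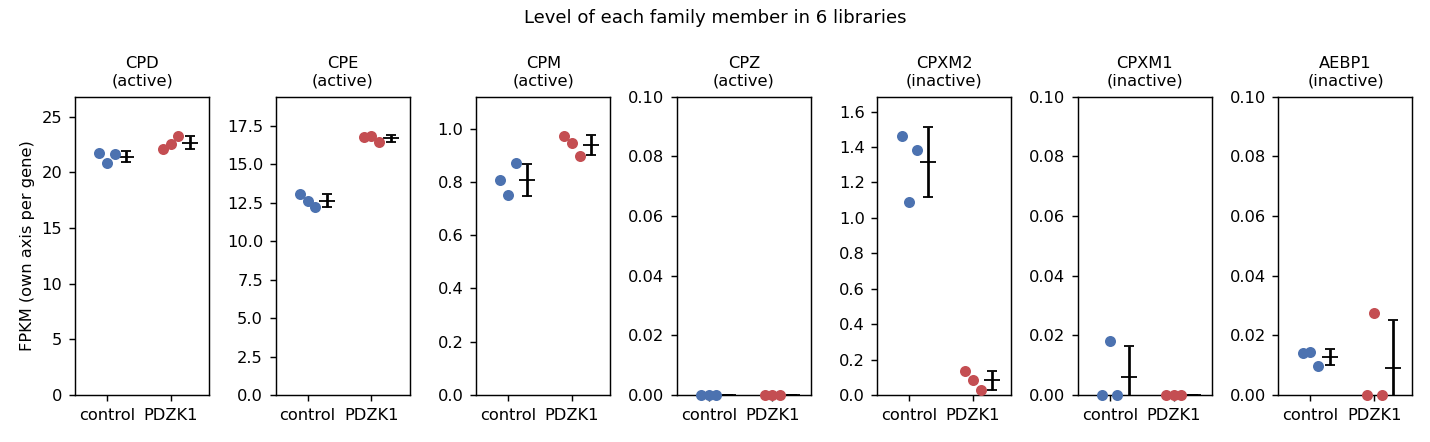
FPKM of the 7 family members in the 3 control libraries (blue) and the 3 PDZK1 libraries (red), with the mean and SD in black and an axis of its own for each gene. CPXM2 falls from between 1.09 and 1.47 to at most 0.133, CPE rises from at most 13.1 to at least 16.4, and CPZ is at 0 in every library.

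CPXM2 (ENSG00000121898, chromosome 10, 123706207 to 123940267, minus strand) is a secreted discoidin-domain protein of the extracellular space. It had 183, 131 and 149 counts in the control group against 16, 11 and 4 in the PDZK1 group. Scaled to library size this is 5.66, 4.24 and 5.40 against 0.499, 0.336 and 0.126 normalised counts. Each PDZK1 library lay below each control library by a wide margin, and the lowest, PDZK1 replicate 3, was just above the 3 counts that a count of 0 allows at 95% confidence. Its log2 fold change of -3.97 (SE 0.363; 95% bounds -4.79 and -3.16, n = 3 per group) is a level 15.7-fold lower (interval 8.93 to 27.6), and in order of log2 fold change the gene was the tenth from the bottom of the 13645 genes tested. On log2(FPKM + 1) the same difference was -1.09, a scale that shrinks changes of low genes. In bulk RNA, fewer cells that express a gene and less RNA per cell cannot be told apart.

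The other inactive paralogues were close to absent in both groups. CPXM1 (ENSG00000088882, chromosome 20, 2794069 to 2800637), known from fat cell differentiation, had 2 counts in control replicate 2 and 0 in the other 5 libraries. AEBP1 (ENSG00000106624, chromosome 7, 44104361 to 44114562) had 2 counts in each control library and 0, 5 and 0 in the PDZK1 libraries. A floor of 3 counts corresponds to 0.0915 to 0.109 normalised counts here, so AEBP1 was above it only in PDZK1 replicate 2 and CPXM1 nowhere. No difference of either gene was detectable at this depth. Among the paralogues, CPXM2 thus held nearly all of the reads of the control libraries, with 463 counts in sum against 6 for AEBP1 and 2 for CPXM1.

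CPE (ENSG00000109472, chromosome 4, 165361194 to 165498320, plus strand), the granule enzyme, was higher in the PDZK1 libraries. It had 1187, 1098 and 954 counts in the control group against 1501, 1542 and 1455 in the PDZK1 group. In normalised counts these are 36.7, 35.5 and 34.6 against 46.8, 47.1 and 45.9. The groups did not overlap, and the spread within a group was small beside the gap. This gave a log2 fold change of 0.39 (SE 0.0506, 95% interval 0.27 to 0.50), or 1.31-fold.

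CPD (ENSG00000108582, chromosome 17, 30378905 to 30469989, plus strand), the trans-Golgi enzyme, was the most abundant member and differed little. Its normalised counts were 221, 213 and 222 in the control group against 225, 229 and 236 in the PDZK1 group. The groups did not overlap, but the highest control and the lowest PDZK1 library were close together. This gave a log2 fold change of 0.073 (SE 0.0350, 95% interval -0.0059 to 0.15). Its upper bound lay below the lower bound of CPE, 0.27. The ratio of CPD to CPE in FPKM was 1.69 ± 0.0648 in the control libraries and 1.36 ± 0.0526 in the PDZK1 libraries.

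CPM (ENSG00000135678, chromosome 12, 68842197 to 68971570, minus strand), the cell-surface enzyme, had 188, 168 and 175 counts in the control group against 224, 194 and 186 in the PDZK1 group. In normalised counts these are 5.82, 5.44 and 6.34 against 6.99, 5.92 and 5.86, and the groups overlapped. This gave a log2 fold change of 0.094 (SE 0.132, 95% interval -0.20 to 0.39). Leaving out PDZK1 replicate 1 gave 0.0085, control replicate 2 0.042 and control replicate 3 0.15. In FPKM the groups did not overlap, at 0.750 to 0.870 against 0.897 to 0.975, and on log2(FPKM + 0.1) the difference was 0.19. The transcript length that counts and FPKM imply together was 7.16 to 7.19 kb in the control libraries and PDZK1 replicate 1, but 6.26 and 6.56 kb in PDZK1 replicates 2 and 3. The gene also overlaps MDM2, the p53 ubiquitin ligase, on the opposite strand, and MDM2 was far more abundant, at 319 ± 19.7 and 362 ± 12.2 normalised counts. The strandedness of the counting is not given in the sources used here, so reads of the 2 genes in their overlap cannot be told apart. For CPE and CPD the implied length was about 2.8 kb and 10.1 to 10.2 kb in all 6 libraries. For CPXM2 it was 3.83 to 3.84 kb in the control libraries and 3.76, 4.04 and 4.44 kb in the PDZK1 libraries, where it rests on 16, 11 and 4 counts.

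CPZ (ENSG00000109625, chromosome 4, 8592660 to 8619759, plus strand), the enzyme with the frizzled-like domain, had 0 counts in all 6 libraries, which allows up to 0.109 normalised counts. GPR78, which overlaps it on the same strand, had 0 to 13 counts. CPN1, the plasma enzyme of the same subfamily and no member here, also had 0 counts in every library.

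Of the 7 members, 4 passed the filter on low counts. In the fit across all genes, 1 of these 4 was lower past an adjusted p of 0.05 (CPXM2, background 2.41% of genes tested) and 1 was higher (CPE, background 1.41%), so 2 passed in either direction against 3.83%. The groups did not overlap in normalised counts for 1 lower member (CPXM2, background 12.3%) and 2 higher members (CPE and CPD, background 11.6%), 3 in all against 23.9%. As the family was chosen on this comparison, nothing is read from these counts. Both calls were made in every fit in which the gene could be tested, 19 for CPXM2 and 20 for CPE.

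**Figure D2:**
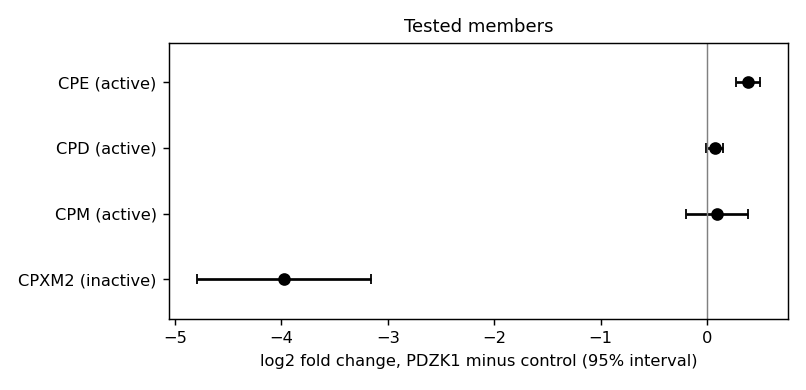
Log2 fold change of the 4 tested members, PDZK1 minus control, as points with 95% intervals from the model across all genes (n = 3 per group). CPXM2 is at -3.97, CPE at 0.39, and the intervals of CPD and CPM include 0.

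The levels of the enzymes and of the inactive paralogues were also summed, and each sum rests mainly on 1 or 2 genes. The summed FPKM of the 4 enzymes was 35.6, 34.2 and 34.8 in the control group against 39.9, 40.4 and 40.7 in the PDZK1 group. That of the 3 paralogues was 1.48, 1.12 and 1.40 against 0.133, 0.111 and 0.0285. The paralogues made up 3.67% ± 0.435 of the family's FPKM in the control libraries and 0.225% ± 0.137 in the PDZK1 libraries. Neither sum overlapped between groups. Among the enzymes CPE differed most in FPKM (12.7 to 16.7) and CPD less (21.4 to 22.7), and among the paralogues nearly all of the difference was CPXM2. Without CPXM2 the paralogues made up 0.0540% and 0.0226%.

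**Figure D3:**
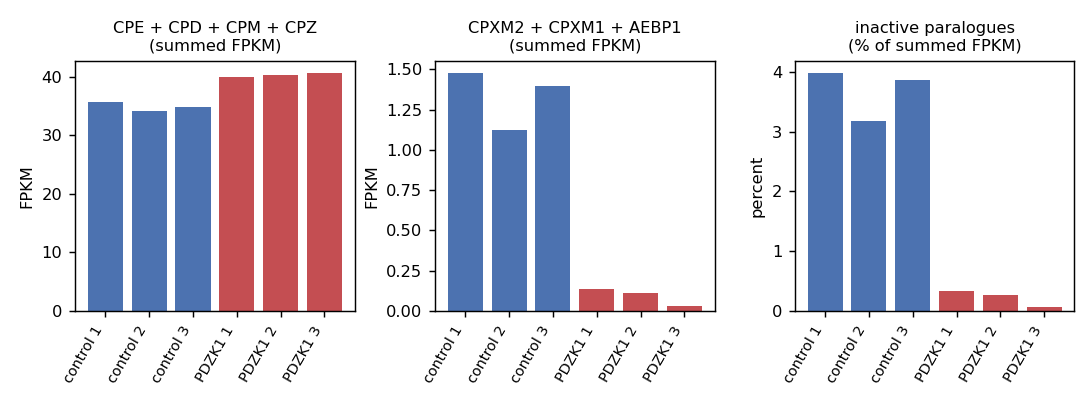
Summed FPKM of the 4 enzymes (left), of the 3 inactive paralogues (middle) and the percent of the family's FPKM from the paralogues (right), with 1 bar per library, control in blue and PDZK1 in red. The enzyme sums lie between 34.2 and 35.6 in the control and 39.9 and 40.7 in the PDZK1 libraries, while the paralogue sums fall from at least 1.12 to at most 0.133.

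CPE and CPD act after convertases in the secretory pathway, so the genes of prohormone processing were examined next. The convertases of granules were nearly absent, with 0 to 5 counts of PCSK1 and 0 to 2 of PCSK2 per library. The granule protein CHGA had at most 2 counts, and the neuroendocrine markers DDC, INSM1 and NEUROD1 had 0 in all 6 libraries. Other genes of these lists were present at low levels. SCG2 was at 7.39 ± 0.315 and 7.87 ± 0.459 normalised counts, and PCSK1N at 6.10 ± 0.815 and 6.15 ± 0.561. SYP was at 0.936 ± 0.377 and 0.963 ± 0.213, and CHGB had 0 to 15 counts. The 10 neuroendocrine markers summed to 197 to 233 normalised counts in the control and 187 to 206 in the PDZK1 libraries, most of it the neuronal enolase ENO2. PAM, which amidates peptides after carboxypeptidase action, was abundant, at 502 ± 15.6 and 481 ± 12.6 normalised counts (log2 fold change -0.063). Of 12 genes listed, 6 could be tested. Beside 1.41% higher and 2.41% lower of all genes tested, 0 were higher and 1 was lower past the threshold. This was QPCT, glutaminyl cyclase, at 2.10, 1.17 and 0.942 normalised counts in the control and 0.281, 0.427 and 0.252 in the PDZK1 libraries (log2 fold change -2.12, edgeR adjusted p 0.0251). QPCT was past the threshold without control replicate 3 and in none of the other 5 leave-one-out fits (adjusted p 0.0551 to 0.125). SCG5, the 7B2 chaperone of PCSK2, was at 21.8 ± 3.25 and 13.6 ± 2.78 normalised counts (edgeR adjusted p 0.0720). None of the 6 tested members among 7 other proprotein convertases passed, with FURIN at 161 ± 5.88 and 173 ± 0.811 normalised counts (log2 fold change 0.10, edgeR adjusted p 0.173) and MBTPS1 at 175 ± 3.25 and 179 ± 5.30. The median log2 fold change was -0.066 over the prohormone genes and -0.016 over the convertases, beside -0.00025 over all genes tested.

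Other carboxypeptidases were measured in the same libraries. Of 16 further genes of the M14 family, 8 could be tested. CPA4, a secreted enzyme that cleaves hydrophobic C-termini, was the only one past the threshold, beside 3.83% of all genes tested. It was at 355, 352 and 310 normalised counts in the control and 278, 270 and 259 in the PDZK1 libraries (log2 fold change -0.33, SE 0.0542, edgeR adjusted p 0.0104). CPA4 was not past it without control replicate 2 (adjusted p 0.0681) or PDZK1 replicate 3 (0.0666). The tubulin deglutamylases AGTPBP1 and AGBL5, the next most abundant with 55.8 ± 3.08 normalised counts for AGBL5 in the control libraries, had log2 fold changes of -0.10 and -0.035. Of 10 carboxypeptidases of other families, 7 could be tested, and CTSZ, a lysosomal cysteine carboxypeptidase, was higher (179 ± 3.08 to 207 ± 3.92 normalised counts, log2 fold change 0.21, edgeR adjusted p 0.0092). CTSZ was not past the threshold without PDZK1 replicate 3 (adjusted p 0.0566). CTSA, the lysosomal protective protein, was the most abundant, at 686 ± 11.6 and 741 ± 18.1 normalised counts (edgeR adjusted p 0.138). CTSZ, CTSA, CPVL and SCPEP1 lay higher in the PDZK1 libraries without overlap, beside 11.6% of all genes tested. The groups overlapped for CPQ, PRCP and NAALAD2, the other tested genes of this list. Of the inhibitor list (LXN, RARRES1 and the plasma subunit CPN2), 2 of 3 genes were tested and 0 passed, and CPN2 had 0 counts. The median log2 fold change was -0.070 over the M14 genes, 0.11 over the other carboxypeptidases and -0.045 over the inhibitors.

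The discoidin domain that CPXM2 shares with AEBP1 and CPXM1 binds collagen or cell membranes in other proteins. Of 16 other genes with this domain, 11 could be tested. Past the threshold 1 was higher and 1 lower, beside 1.41% and 2.41% of all genes tested. EDIL3, an integrin ligand, rose from 17.4, 16.9 and 17.0 to 31.9, 31.1 and 32.8 normalised counts (log2 fold change 0.90, SE 0.0587, edgeR adjusted p 8.93e-05). NRP2, a semaphorin and VEGF co-receptor, fell from 13.9, 10.9 and 8.92 to 5.65, 4.42 and 5.01 (log2 fold change -1.16, edgeR adjusted p 0.00653). EDIL3 was past the threshold in all 6 leave-one-out fits, and NRP2 was not without PDZK1 replicate 3 (adjusted p 0.0510). The most abundant of the domain, DCBLD2 and the collagen receptor DDR2, had log2 fold changes of -0.047 and -0.034. The median over the 11 genes was 0.065. Without control replicate 3, 5 genes of the list passed the threshold, 3 higher and 2 lower.

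Collagens and matrix genes linked to AEBP1 formed a list of 15, of which 8 could be tested. Past the threshold 2 were lower and 0 higher, beside 2.41% and 1.41% of all genes tested. COL5A2, a chain of the fibril-regulating collagen V, was at 71.6, 74.9 and 73.6 normalised counts in the control and 40.8, 39.3 and 37.3 in the PDZK1 libraries (log2 fold change -0.91, SE 0.0526, edgeR adjusted p 8.14e-05), and it was past the threshold in all 6 leave-one-out fits. FBLN1, a matrix glycoprotein, was at 1.06 ± 0.256 and 0.124 ± 0.111 normalised counts (log2 fold change -3.05, edgeR adjusted p 0.0322). Its PDZK1 libraries were at 0, 0.214 and 0.158, near the floor of about 0.1 normalised counts, so the size of its fold change is uncertain. FBLN1 was past the threshold without control replicate 3 and in none of the other 5 such fits (adjusted p 0.0617 to 0.150). COL5A1, the partner chain of COL5A2, and COL1A1 did not pass (log2 fold changes 0.43 and 0.53, edgeR adjusted p 0.0757 and 0.109), although their groups did not overlap, with the PDZK1 libraries higher. POSTN did not pass either (1.41 ± 0.479 and 0.195 ± 0.174 normalised counts, log2 fold change -2.81, edgeR adjusted p 0.0704). Its groups did not overlap, with the PDZK1 libraries lower. Over all genes tested, 11.6% lay higher and 12.3% lower without overlap. With DESeq2, 5 genes of the list passed, 2 higher and 3 lower. FN1, fibronectin, the most abundant, was at 682 ± 93.8 and 968 ± 117 (edgeR adjusted p 0.141), also without overlap. The median over the 8 genes was -0.31. The list summed to 703 to 876 normalised counts in the control and 926 to 1140 in the PDZK1 libraries, most of it FN1. By the sign of the log2 fold change, 3 of the 8 tested genes were higher and 5 lower. The 10 fibroblast markers summed to 154 to 168 and 177 to 198 normalised counts, with DCN, LUM, TCF21 and THY1 at 0 in all libraries. FAP was at 84.3 ± 10.2 and 102 ± 6.47 normalised counts, and PDGFRB at 70.8 ± 6.23 and 81.3 ± 4.12. All 4 tested markers had positive log2 fold changes, with a median of 0.24, and 0 were past the threshold. The part of the fibroblast markers in the values of CPXM2 or the matrix genes was not tested.

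Substrates and partners of CPM and CPZ completed the lists. Of 19 genes of the kinin, anaphylatoxin and arginine axis, 10 could be tested. Past the threshold 1 was lower, beside 2.41% of all genes tested. This was ASL, argininosuccinate lyase, which went from 52.8 ± 1.69 to 43.8 ± 1.61 normalised counts (log2 fold change -0.27, edgeR adjusted p 0.0230). ASL was past the threshold without control replicate 3 and in none of the other 5 leave-one-out fits (adjusted p 0.0580 to 0.111). The complement gene C3 varied widely between libraries, at 374 ± 126 and 361 ± 85.2 normalised counts, and SLC7A1, an arginine transporter, was at 235 ± 7.96 and 227 ± 7.08. KNG1, the kinin precursor, had 0 counts. Of 25 frizzled-domain and Wnt genes, 20 could be tested. Past the threshold 1 was higher, beside 1.41% of all genes tested. This was SFRP1, a secreted Wnt antagonist with a frizzled-like domain, which went from 111 ± 6.48 to 141 ± 7.79 normalised counts (log2 fold change 0.35, edgeR adjusted p 0.0081). SFRP1 was not past it without control replicate 2 (adjusted p 0.0533) or PDZK1 replicate 1 (0.0579). CTNNB1 and FZD4, the most abundant, had log2 fold changes of 0.041 and -0.024. The medians of the lists were 0.15 and 0.036.

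**Figure D4:**
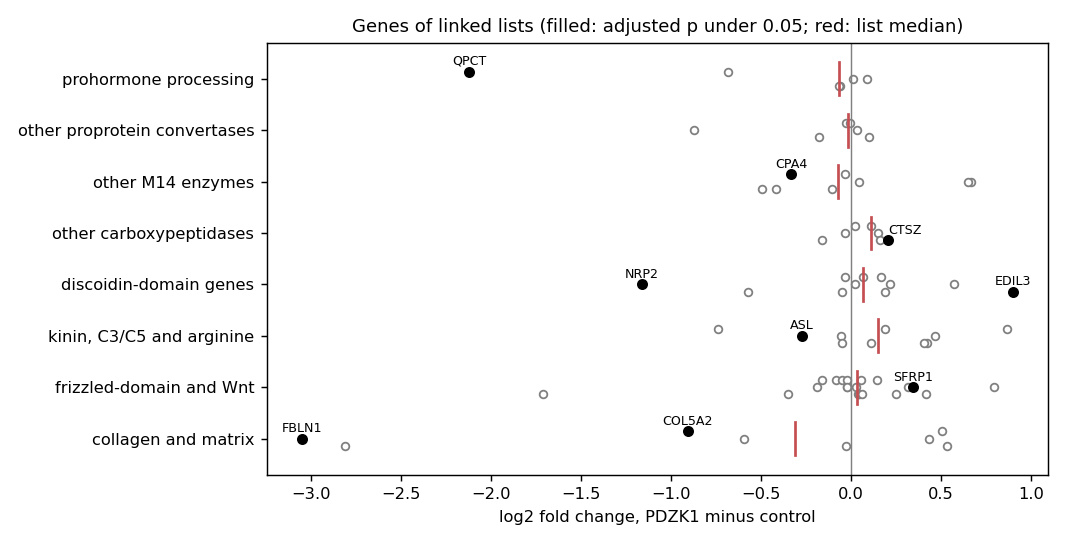
Log2 fold change, PDZK1 minus control, of the tested genes of 8 lists linked to the family, with 1 circle per gene, filled and named where the edgeR adjusted p is under 0.05, and the median of each list as a red bar. Each list has at most 2 filled circles, from FBLN1 at -3.05 to EDIL3 at 0.90.

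The members lie on 6 chromosomes, and the 3 nearest tested genes on each side were compared with them. For CPXM2 these were BUB3, ACADSB and IKZF5 at lower coordinates and CHST15, OAT and LHPP at higher ones, with log2 fold changes from -0.091 to 0.073 and none past the threshold. CHST15, the nearest at 67.4 kb, had 21.7 ± 2.07 and 21.3 ± 1.55 normalised counts. An antisense gene and a sense intronic gene are annotated within CPXM2, and neither is among the entries listed. Around CPE, TLL1, a tolloid-like metalloproteinase 375 kb away, was lower (6.15 ± 1.43 to 3.39 ± 0.402 normalised counts, log2 fold change -0.86, edgeR adjusted p 0.0419). TLL1 was past the threshold in 1 of the 6 leave-one-out fits, the one without control replicate 1 (adjusted p 0.0660 to 0.173 in the others). MSMO1, the nearest gene on the other side of CPE, had a log2 fold change of -0.040. Over all 7 members 1 of 43 neighbours passed the threshold, against 3.83% of all genes tested. MDM2, which overlaps CPM and is counted among the 43, did not pass (log2 fold change 0.18, edgeR adjusted p 0.0734, but 0.00333 without control replicate 3).

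**Figure D5:**
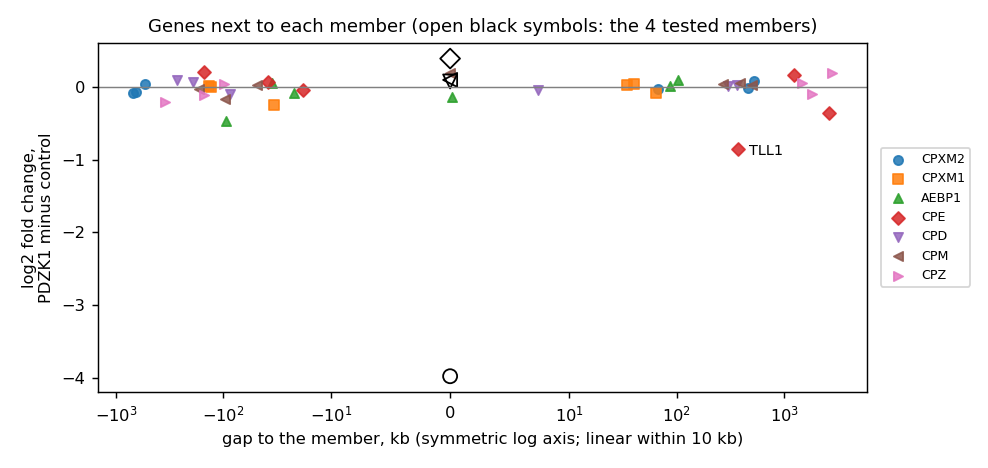
Log2 fold change of the tested genes next to each member (coloured symbols by member) against the gap between gene bodies in kb, negative at lower coordinates, on a symmetric log axis. The open black circle at 0 kb is CPXM2 at -3.97, and its 6 neighbours lie between -0.091 and 0.073.

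The genes whose log2 normalised count followed CPXM2 most closely over the 6 libraries, among those with at least 5 normalised counts in the higher group, were B4GALNT4 (Pearson r 0.997), ERCC8 (0.997), CSRP1 (0.995), UPF3B (0.993) and JUN (0.993). They encode a glycosyltransferase, a repair protein, a LIM-domain protein, a factor of nonsense-mediated decay and a transcription factor. Their falls were of unequal size, with log2 fold changes of -0.84, -0.22, -2.65, -0.20 and -0.15 against -3.97 for CPXM2. The 6 points share the division into 2 groups, which by itself raises these values. Among the PDZK1 libraries CPXM2, B4GALNT4, ERCC8, CSRP1 and UPF3B all descended from replicate 1 to replicate 3, and JUN was also lowest in replicate 3. The genes were picked by this correlation, so a shared order within a group was not tested. Among the control libraries CPXM2 was highest in replicate 1, whereas each of these genes was highest in replicate 3.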

How the data were processed

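RNA of 3 control and 3 PDZK1 overexpression libraries of ARPE-19 cells was sequenced. The authors deposited estimated counts per gene, written as whole numbers and not scaled for depth, and FPKM, scaled by transcript length and mapped fragments. The submitters' processing notes name fastp 0.20.1, HISAT2 2.2.1 and GRCh38. The counting program and strandedness are not given in the sources used here. Each table holds 3 further columns that match none of the samples and were not used.

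Entries named as assembled loci (853 of 21314, 0.519% to 0.536% of counts) were left out. The remaining genes were filtered with filterByExpr, scaled by TMM and tested with edgeR 4.0.16 in R 4.3.3 (robust quasi-likelihood test, PDZK1 against control, no covariates, 13645 genes, Benjamini-Hochberg adjustment over all of them, threshold 0.05), after the script had been tested on simulated data. Intervals are 95% intervals of the model, and floors of 3 counts cover counting error only. No list was tested as a set. The members and lists were chosen with earlier results of these data known. Apart from the members, genes are named where a list or neighbour was past the threshold, with up to 2 of the most abundant others, and the remaining ones (among them SCG5, C3 and genes at or near 0) were chosen after their values were seen. Positions come from GENCODE v29 (20229 of 20461 identifiers matched). Proteins were translated from its transcripts, in place of a protein table, and aligned with MAFFT 7.526.

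Alternatives were DESeq2 1.42.0, limma-voom (limma 3.58.1), limma on log2 FPKM (pseudocounts of 1 and 0.1, mean FPKM of at least 0.5 or no filter), other scalings and count filters, a non-robust fit, PDZK1 left out, assembled loci kept in, the replicate number as a block, and each library left out.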

Additional observations from a re-analysis of the deposited data

How the results depend on the processing

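CPXM2 and CPE kept their direction and their side of the threshold in every alternative computed for them, 19 and 20. The log2 fold change of CPXM2 ran from -4.43 without PDZK1 replicate 1 to -1.09 on log2(FPKM + 1), where the pseudocount is close to the level of the gene, and that of CPE from 0.37 to 0.41. CPD (0.054 to 0.091) and CPM (0.0085 to 0.19) were higher and not past the threshold in all 20. With at least 10 counts required in every library, CPXM2 was not tested and 1 member passed. None of the members, and none of the other genes past the threshold for which the alternatives were run, changed sign. On log2 FPKM, ASL, CPA4, CTSZ, NRP2, PAX6, SFRP1 and TLL1 were not past the threshold, nor was QPCT without the FPKM filter, and with limma-voom FBLN1, QPCT and TLL1 were not. FBLN1 and TLL1 also missed it with the non-robust fit and with assembled loci kept in, and MDM2 passed with DESeq2.

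The number of genes past the threshold was 522, against 793 with DESeq2, 184 on log2(FPKM + 1), 185 on log2(FPKM + 0.1) and 185 without the FPKM filter; the cause was not tested. It ran from 181 to 875 when single libraries were dropped, with 875 without control replicate 3. Scaling by library totals only called 517 genes, 241 higher and 276 lower, in place of 193 and 329. A replicate block left 163 genes past the threshold. The block did not change the calls of the members (CPXM2 -4.02, CPE 0.39), and ASL, CTSZ, FBLN1, PAX6, QPCT, SFRP1 and TLL1 were then not past the threshold. The deviations from the group means correlated at -0.046, -0.056 and -0.143 between libraries of equal number, so the numbers show no pairing.

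The share of the inactive paralogues, 3.67% in the control libraries, was 1.95% by normalised counts, 8.99% without CPD and 0.0540% without CPXM2. In the PDZK1 libraries it was 0.225%, and 0.132% by normalised counts, 0.508% without CPD and 0.0226% without CPXM2. Levels under about 0.1 normalised counts are beyond this depth, which holds for CPZ and CPXM1 in all 6 libraries and for AEBP1 in 5 of 6.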
